A study of Mus musculus with 13 samples.

Results

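Chromatin accessibility at 5 genes listed as responsive to the K27M mutation of histone H3.3, Bmi1, Pbx3, En2, Vax1 and Vax2, was measured by ATAC-seq in cultured mouse oligodendrocyte progenitor cells (OPCs). The genes were taken by symbol from the GENCODE M21 annotation of mm10, where they are 5 of 21911 protein-coding genes. The 13 libraries fell into 4 groups by region of origin and genotype. The brainstem gave 3 control and 3 K27M cultures, and the telencephalon 3 control and 4 K27M cultures. For every library, peaks were read in the promoter of each gene (from 2 kb upstream to 1 kb downstream of any annotated transcription start), in the gene body and within 50 kb on each side.

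All cultures came from AMGFAP-Cre;K27M litters at P5 to P7, and K27M H3.3 is made from the endogenous locus after Cre recombination. The study's methods name the driver hGFAP-Cre, active in neural stem and progenitor cells, and the labels were taken to mean the same driver, although the names differ. Controls were littermates. The label cortex stands for dorsal telencephalon, that is cortex, corpus callosum and hippocampus, and each culture pooled tissue of several pups of a region and genotype. Cells were depleted on BSL1, captured on anti-PDGFRa, and kept in proliferation medium with forskolin, CNTF, neurotrophin-3 and PDGF, without differentiation. A library is named here by its group and its culture number (41, 51, 59 or 61). Cultures were the replicates, so the tests below measure the spread between cultures and not between animals. The study dissected both regions from the same litters. Exact tests over both regions use no culture block, and count brainstem and telencephalon libraries of a culture number as independent.

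K27M replaces lysine 27 of H3.3 with methionine, which inhibits Polycomb repressive complex 2 and lowers trimethylation of H3 lysine 27 across the genome. Bmi1 encodes a core subunit of Polycomb repressive complex 1, which binds that mark and is known for silencing Cdkn2a in neural progenitors. Pbx3 encodes a TALE homeodomain protein that binds DNA together with Hox proteins. En2 is a homeobox gene of the midbrain and anterior hindbrain, and Vax1 and Vax2 are homeobox genes of the ventral forebrain and eye, related to Emx1 and Emx2.

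The value given for a peak is its deposited fold enrichment, relative to background reads near it in the same library. Peaks were called in each library alone, read counts were not used here and the depth is unknown, so a missing peak means only that none was called. Lists reached 52466 peaks in control brainstem 61, and the shortest, of control telencephalon 59, was well below the next, K27M brainstem 61 with 27768. Each gene was therefore also read in lists of equal length, cut to the most significant peaks by p-value down to the length of the shortest. The fold percentile gives the share of a library's own peaks with at most that fold. Among marker genes, promoters of 5 of 6 OPC genes had a peak in all 13 libraries, the exception being Cspg4 with 3. Promoters of the microglial genes Cx3cr1, Csf1r and Itgam, the endothelial gene Tek and the mature oligodendrocyte genes Mog and Mag had none in any library, while those of Gfap, Snap25, Syt1 and Tubb3 had a peak in all 13.

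The sequences of 3 windows show what was read as open or not called at these loci. They are written 5′ to 3′ in lower case, with CG dinucleotides in capitals. The first is the stretch of 250 bases before the RefSeq start of Bmi1 (chr2:18676768-18677017, + strand, GRCm38.p6), which overlapped a called peak in 12 libraries. It is 70.4% G and C with 21 CG dinucleotides, and 85.2% of the 32851 promoters in the RefSeq table had at most as many in the same window. The second is the stretch of 250 bases before the RefSeq start of Vax1 (chr19:59170398-59170647, − strand), which overlapped a peak in 0 libraries. It is 44.8% G and C with 11 CG dinucleotides, and 66.5% of promoters had at most as many. The third is the central 300 bases of the stretch shared by all 13 libraries in a peak inside Pbx3 (chr2:34249870-34250169, shown on the + strand although Pbx3 lies on the other), which overlaps 0 annotated exons. It holds 12 CG dinucleotides, and 92.2% of 2990 windows of the same length, at peaks of all 13 libraries outside GENCODE promoters, held at most as many.
Bmi1 upstream: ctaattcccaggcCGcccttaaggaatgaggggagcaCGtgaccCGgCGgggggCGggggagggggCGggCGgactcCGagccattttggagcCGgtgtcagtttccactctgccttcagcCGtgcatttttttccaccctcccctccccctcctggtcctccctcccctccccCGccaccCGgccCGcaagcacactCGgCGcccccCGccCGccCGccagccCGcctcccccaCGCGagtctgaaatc
Vax1 upstream: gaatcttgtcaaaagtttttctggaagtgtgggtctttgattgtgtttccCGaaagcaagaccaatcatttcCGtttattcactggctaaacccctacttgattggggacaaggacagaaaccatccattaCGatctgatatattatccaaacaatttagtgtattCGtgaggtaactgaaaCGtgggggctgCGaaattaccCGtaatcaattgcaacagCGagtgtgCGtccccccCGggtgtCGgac
Pbx3 intronic peak: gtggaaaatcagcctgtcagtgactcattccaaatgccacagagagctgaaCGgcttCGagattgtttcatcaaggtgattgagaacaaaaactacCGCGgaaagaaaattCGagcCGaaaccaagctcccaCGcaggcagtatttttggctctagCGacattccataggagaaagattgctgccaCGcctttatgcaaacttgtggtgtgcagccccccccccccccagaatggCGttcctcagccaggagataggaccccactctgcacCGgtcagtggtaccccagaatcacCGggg

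Of 3 motifs searched on both strands, the Pbx3 intronic window held 0. The E-box CAGCTG was present in 33.9% of the 2990 windows. The Sox motif ACAAAG was present in 38.2% of them, and the Pbx-Hox motif TGATTNAT in 4.72%. None of the 3 is contained in another. The RefSeq promoter table held 2 of the 5 genes, and Pbx3, En2 and Vax2 were not matched.

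Promoters differed in how often a peak was called. Pbx3 had a promoter peak in 13 of 13 libraries, Bmi1 in 12, Vax2 in 10, En2 in 8 and Vax1 in 1. In lists of equal length these numbers were 13, 8, 3, 3 and 0. Across all protein-coding genes, 42% had a promoter peak in every library and 30.6% in none. The genes carry the label K27M-responsive. In the study, RNA of Bmi1 and Pbx3 was raised, and of En2 and Vax2 lowered, by K27M in midline tumours and cultured OPCs. Vax1 is not named with them. At K27M-regulated genes the study described ATAC-seq signal as largely unaffected by H3 status. Peak fold is another measure than RNA. In these lists 3 of the genes could be fitted across promoters (Pbx3 and, allowing missing libraries, Bmi1 and Vax2). None of them passed the adjusted genotype test. In each region that test called 0 of 9200 promoters with a peak in every library, and 0 of 12139 in the fit allowing missing libraries. En2 and Vax1 were called too rarely for that fit and were compared by exact tests alone. Over all libraries of a region, no promoter of the 5 separated the genotypes completely, that is, was called in every culture of a genotype and none of the other. Among brainstem cultures with both genotypes (59 and 61) En2 did, as described with that gene. Complete separation was also rare genome-wide, at 0.251% of 3583 promoters called in some but not all brainstem libraries and 0.152% of 5261 in the telencephalon. In lists of equal length it was 1.51% and 0.811%, and again 0 of the 5 promoters separated.

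**Figure D1:**
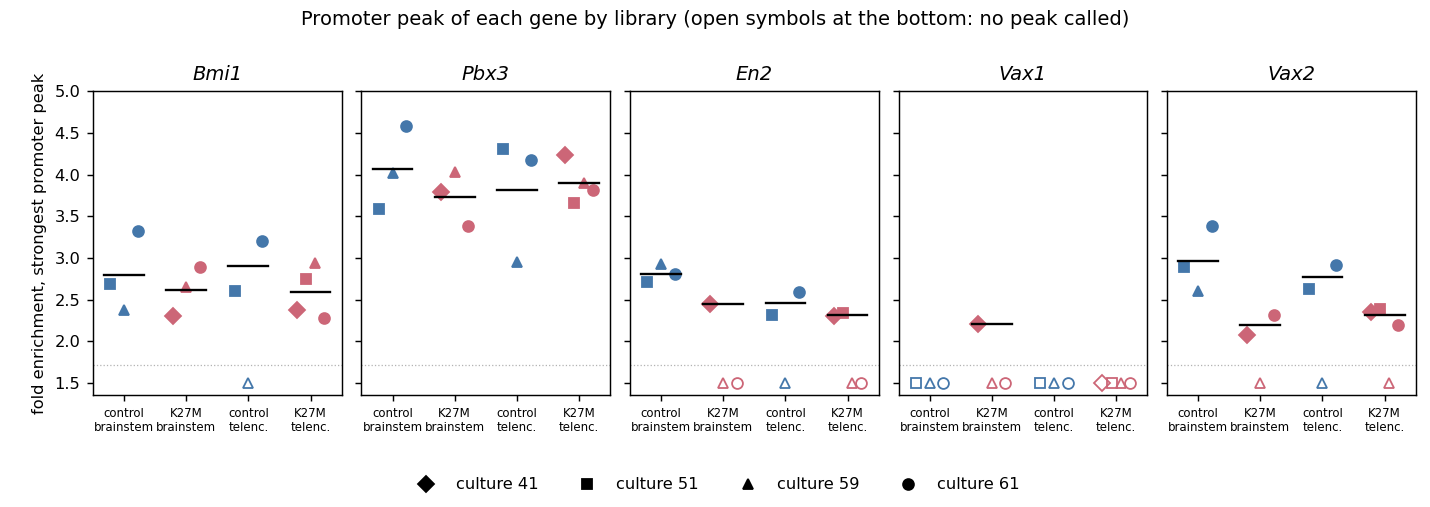
Fold enrichment of the strongest promoter peak (y axis) in each library, by group (x axis) and gene. Symbols give the culture, black lines the group mean of the libraries with a peak, and open symbols below the dotted line libraries without one. All 5 Vax2 control values lie above all 5 K27M values, and Pbx3 is the only gene of the 5 with a value in all 13 libraries.

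Bmi1 (ENSMUSG00000026739.13, chr2:18677018-18686629, + strand) showed a weak promoter peak in nearly all cultures of both genotypes. Its fold was 2.68, 2.38 and 3.33 in control brainstem cultures 51, 59 and 61, and 2.30, 2.65 and 2.89 in K27M brainstem cultures 41, 59 and 61. In the telencephalon it was 2.61 and 3.21 in control cultures 51 and 61, and 2.37, 2.75, 2.94 and 2.28 in K27M cultures 41, 51, 59 and 61. The groups overlapped in both regions, and the only library without a peak was control telencephalon 59, the one with the shortest list. In K27M brainstem 41 the strongest of the promoter peaks lay at an internal start, about 4 kb into the gene. The mean fold over 12 libraries was 2.70 ± 0.35 (SD), and the mean percentile 31.1.

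Because Bmi1 was not called in every library, its fold was fitted with the missing library left out, an analysis added after seeing the data. K27M minus control was −0.0045 ± 0.13 (SE) on the log2 scale in the brainstem and −0.11 ± 0.13 in the telencephalon (limma, adjusted p = 1 and 0.9998). The 95% intervals ran from −0.26 to 0.25 and from −0.38 to 0.16. Over libraries with a peak in both regions, the two-sided exact permutation p was 0.277.

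Pbx3 (ENSMUSG00000038718.15, chr2:34171457-34373142, − strand) had the strongest and most regular promoter peak of the 5 genes. The fold was 3.59, 4.03 and 4.59 in control brainstem cultures 51, 59 and 61, and 3.79, 4.04 and 3.38 in K27M brainstem cultures 41, 59 and 61. It was 4.31, 2.96 and 4.18 in control telencephalon cultures 51, 59 and 61, and 4.23, 3.66, 3.9 and 3.81 in K27M telencephalon cultures 41, 51, 59 and 61. Values of the genotypes overlapped in both regions, and the lowest of the 13 came again from control telencephalon 59. The mean was 3.88 ± 0.43 (SD, n = 13), at a mean percentile of 85.5. Its mean percentile was at or above that of 71.4% of the genes with a promoter peak in all libraries. Peak width varied more than fold, from 768 to 2410 bp.

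Pbx3 was the only gene of the 5 in the test across the 9200 promoters called in every library, which compared log2 folds centred on each library's median with limma, keeping culture number as a block. K27M minus control was −0.14 ± 0.13 (SE, 95% interval −0.39 to 0.12, adjusted p = 1) in the brainstem and −0.060 ± 0.11 (−0.29 to 0.17, adjusted p = 0.9994) in the telencephalon. The genotype effect in the brainstem minus that in the telencephalon was −0.075 ± 0.16 (adjusted p = 0.9998). Brainstem minus telencephalon was −0.028 ± 0.12 in control and −0.10 ± 0.11 in K27M cultures (limma, adjusted p = 0.9888 and 0.9985). The background was as flat. limma called 0 of 9200 promoters (0%) in each genotype contrast, in their difference and between regions in control cultures, and 1 promoter (0.0109%) between regions in K27M cultures. The unadjusted p was under 0.05 for 354 promoters in the brainstem, 372 in the telencephalon, 341 for the difference, and 427 and 350 between regions in control and K27M cultures.

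**Figure D2:**
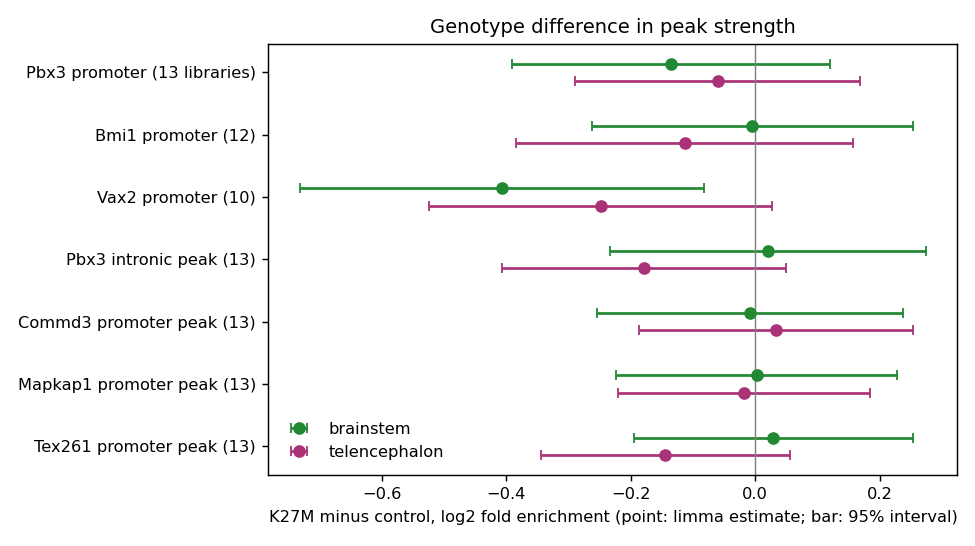
K27M minus control (x axis, log2 fold enrichment) with its 95% interval for promoters and for peaks called in all 13 libraries at the loci, in brainstem and telencephalon (colours). Numbers in brackets are libraries with a value. The only interval that excludes 0 is that of Vax2 in the brainstem, from −0.73 to −0.082, and its adjusted p is 1.

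En2 (ENSMUSG00000039095.8, chr5:28165694-28172166, + strand) was called more often in control than in K27M cultures, without passing the test. All 3 control brainstem cultures had a promoter peak, at folds of 2.71, 2.92 and 2.81, and of the K27M brainstem cultures only 41 had, at 2.45. In K27M brainstem 61 a peak with a fold of 2.48 (chr5:28166795-28167593) began just past the downstream edge of the promoter window, so it was not counted, although it joined the same merged peak. In the telencephalon control cultures 51 and 61 had folds of 2.31 and 2.60, and K27M cultures 41 and 51 had 2.30 and 2.34. The peak was thus called in 5 of 6 control and 3 of 7 K27M libraries. Fisher's exact test gave p = 0.4 in the brainstem, where 3 against 3 cannot go below 0.1, p = 1 in the telencephalon, where the smallest possible is 0.0286, and p = 0.266 over both regions. In the brainstem cultures with both genotypes, the peak was called in 2 of 2 control and 0 of 2 K27M libraries (Fisher's exact p = 0.333, the smallest possible). That test does not pair the libraries of a culture. Complete separation in those cultures occurred at 6.57% of 3030 promoters, at 188 with a peak in control only and at 11 in K27M only. Control brainstem 61, the longest list, lost its En2 peak in lists of equal length, where the separation therefore did not hold. Without K27M brainstem 41 alone, the En2 peak was called in 3 of 3 control and 0 of 2 K27M brainstem libraries (Fisher's exact p = 0.1). With that library left out, complete separation occurred at 2.09% of 3297 promoters, at 61 with a peak in control only and at 8 in K27M only. Over all promoters called in some but not all libraries, 0.366% of 6006 had an unadjusted p under 0.05 in Fisher's exact test over both regions. In lists of equal length the peak was left in 3 of 6 control libraries (brainstem 51 and 59, telencephalon 51) and 0 of 7 K27M libraries (Fisher's exact p = 0.0699). The share of all promoters with such a split in lists of equal length was not computed. Among the libraries with a peak the fold in K27M cultures was lower by a mean log2 difference of −0.24 (two-sided exact permutation within region, p = 0.125). The peak region also covers the start of a predicted gene, Gm43610, and the lists cannot assign it to either.

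Vax2 (ENSMUSG00000034777.2, chr6:83711264-83738313, + strand) showed the clearest difference in strength between genotypes. The promoter fold was 2.89, 2.61 and 3.38 in control brainstem cultures 51, 59 and 61, against 2.07 and 2.32 in K27M brainstem cultures 41 and 61. It was 2.63 and 2.92 in control telencephalon cultures 51 and 61, against 2.35, 2.39 and 2.2 in K27M telencephalon cultures 41, 51 and 61. Every control value lay above every K27M value, within each region and across them. The 3 libraries without a peak, K27M brainstem, control telencephalon and K27M telencephalon, were all of culture 59, and with a missing peak read as the lowest value the telencephalon groups would overlap.

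On the percentile scale, Vax2 peaks averaged 39.5 ± 25.3 (SD, n = 3) in control and 3.86 ± 3.20 (n = 2) in K27M brainstem cultures. In the telencephalon they averaged 44.3 ± 0.07 (n = 2) and 9.24 ± 7.25 (n = 3). The groups did not overlap within either region on this scale, but did across them, since control brainstem 59 was at 12.7 and K27M telencephalon 51 at 17.5. In lists of equal length the peak was left in 3 of 6 control libraries (brainstem 51 and 61, telencephalon 51) and 0 of 7 K27M libraries (Fisher's exact p = 0.0699). The share of all promoters with such a split in these lists was not computed, so this count cannot be set against a background. In the deposited lists detection was even, at 5 of 6 against 5 of 7 (Fisher's exact p = 1).

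Tests of the Vax2 difference were added after its values were seen. Over the 10 libraries with a peak, K27M minus control averaged −0.35 on the centred log2 scale, and a two-sided exact permutation of genotype within region gave p = 0.01, the smallest that its 100 arrangements allow. That permutation counts brainstem and telencephalon libraries of a culture number as independent, so the p-value can be too small. Within each region alone the exact permutation p was 0.1, which is the smallest possible for 2 against 3, and on the deposited scale it was 0.2 in the brainstem and 0.1 in the telencephalon. On the percentile scale the exact permutation p over both regions was 0.02. In the limma fit of 12139 promoters with a peak in at least 2 libraries of every group, the difference was −0.41 ± 0.16 (SE) in the brainstem (95% interval −0.73 to −0.082, adjusted p = 1) and −0.25 ± 0.13 in the telencephalon (−0.52 to 0.027, adjusted p = 0.9998). The Vax2 difference therefore did not pass the test across promoters, in which limma called 0 of the 12139 in either region. The effect in the brainstem minus that in the telencephalon was −0.16 ± 0.19 (limma, adjusted p = 0.9998). K27M lay below control without overlap in both regions at 37 of these 12139 promoters (0.305%). Among the 448 of them with a peak in at most 10 libraries, a limit set after seeing Vax2, it did at 8 (1.79%). The Vax2 promoter peak overlaps the starts of the antisense gene Vax2os and of Gm27893, which it cannot be told apart from.

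Vax1 (ENSMUSG00000006270.7, chr19:59166187-59170056, − strand) had a promoter peak in K27M brainstem 41 only. This peak had a fold of 2.21, a width of 550 bp and a percentile of 5.41, and ranked 38740 by p-value in its list. Its presence in 1 of 3 K27M and 0 of 3 control brainstem libraries gave a Fisher's exact p of 1. No Vax1 peak of any kind remained in lists of equal length.

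By mean promoter fold the order was Pbx3 (3.88 ± 0.43, SD, n = 13), Bmi1 (2.70 ± 0.35, n = 12), Vax2 (2.58 ± 0.40, n = 10), En2 (2.56 ± 0.24, n = 8) and the 1 Vax1 peak (2.21). Bmi1, Vax2 and En2 differed from each other by less than these SDs, and each mean leaves out the libraries without a peak. Region of origin did not divide the 5 promoters in detection. En2 was called in 4 of 6 brainstem and 4 of 7 telencephalon libraries, and Vax2 in 5 of 6 and 5 of 7 (Fisher's exact p = 1 for both).

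Around the 5 genes, peaks of all libraries joined where they overlapped into 50 merged peaks, of which 6 lay at promoters of the genes, 16 in gene bodies and 28 in the flanks. Of these, 5 were called in all 13 libraries, 21 in 1 library, and 36 were lost in lists of equal length. Over all libraries of a region, none of the 50 separated the genotypes completely, against 0.429% of 54599 merged peaks called in some but not all brainstem libraries and 0.297% of 63354 in the telencephalon. The Pbx3 locus held 17 merged peaks, Vax2 12, En2 8, Bmi1 7 and Vax1 6.

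**Figure D3:**
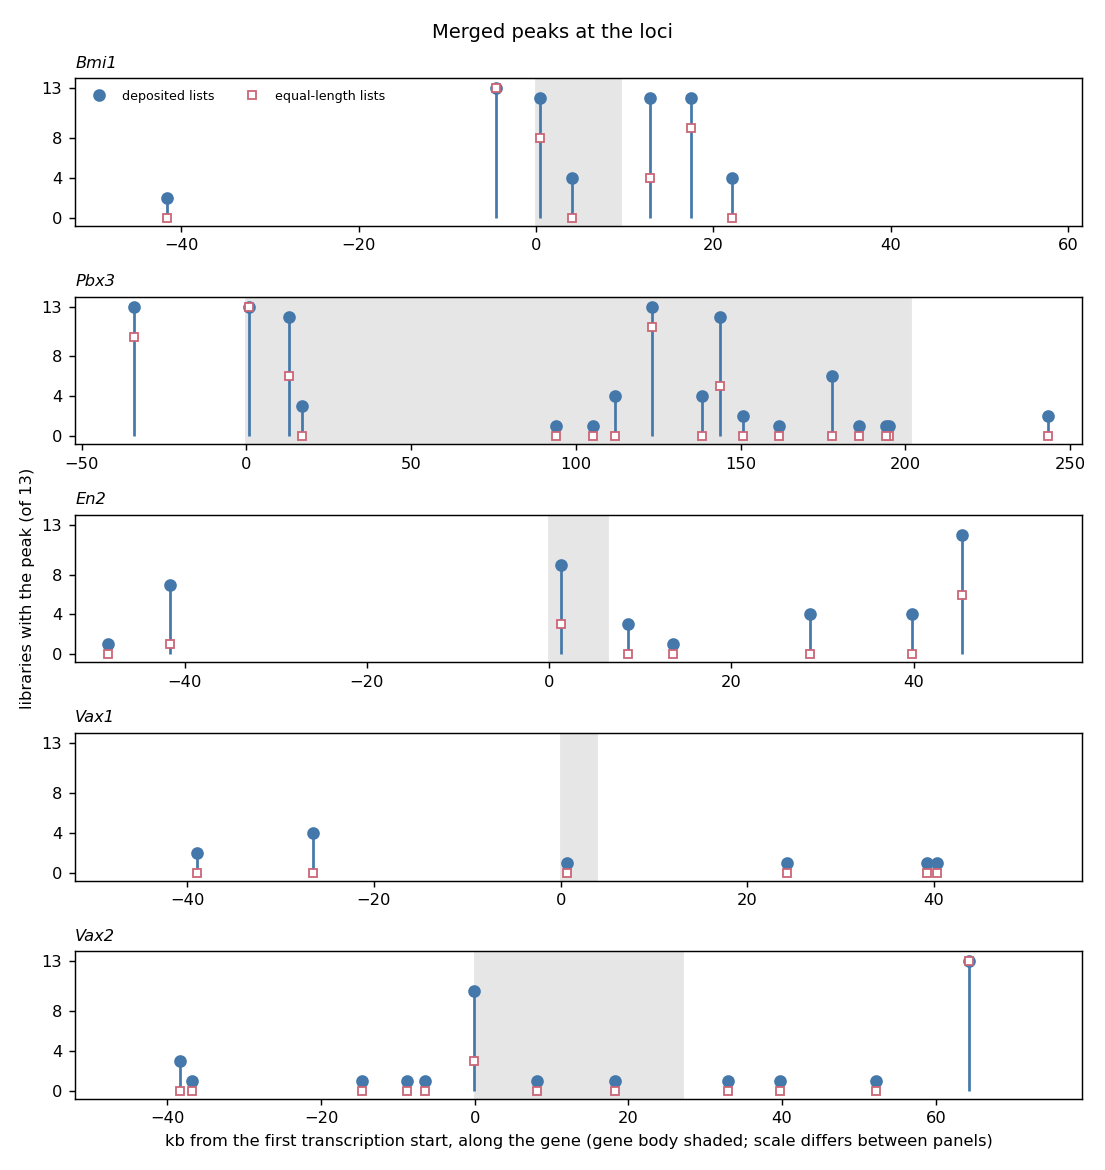
Number of libraries with each merged peak (y axis, of 13) against the distance of its centre from the first transcription start of the gene (x axis, kb), in the deposited lists (filled circles) and in lists of equal length (open squares). At Pbx3, peaks called in all 13 libraries lie at the promoter, 123.0 kb into the gene and 34.2 kb upstream, and at Vax1 no peak was called in more than 4 libraries.

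The most regular peak away from a promoter lay in an intron of Pbx3 (chr2:34249038-34251288), centred 123.0 kb downstream of the first start, and is the one whose central sequence is given above. It was called in all 13 libraries and in 11 of the lists of equal length. Its fold averaged 3.58 ± 0.72 (SD, n = 3) in control and 3.60 ± 0.89 (n = 3) in K27M brainstem, and 3.62 ± 0.43 (n = 3) in control and 3.56 ± 0.45 (n = 4) in K27M telencephalon. These groups overlapped, and K27M minus control was 0.021 ± 0.12 (SE, limma, adjusted p = 0.9999) in the brainstem and −0.18 ± 0.11 (adjusted p = 0.9992) in the telencephalon. Further Pbx3 introns held peaks in 12 libraries centred 12983 and 143744 bp from the first start, with mean folds of 3.24 ± 0.63 and 3.08 ± 0.38 (SD). Control telencephalon 59 was again the library without them.

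The other peaks called in all 13 libraries belonged to neighbouring promoters, of Commd3 4.6 kb upstream of Bmi1, of Mapkap1 34.2 kb upstream of Pbx3 and of Tex261 64.4 kb from the start of Vax2. Their mean folds were 3.28 ± 0.37, 3.24 ± 0.40 and 3.46 ± 0.53 (SD, n = 13). The estimates of K27M minus control ran from −0.14 to 0.033 for these 3 peaks over both regions, and limma called none of them. Among all 13075 merged peaks called in every library, limma called 0 (0%) in either genotype contrast, with an unadjusted p under 0.05 for 589 in the brainstem and 531 in the telencephalon. Near En2 the most regular peak was at the promoter of Cnpy1, 45.3 kb from the En2 start, in 12 libraries at 2.71 ± 0.31, above the 9 libraries of the merged peak at En2 itself.

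The number of peaks per locus (gene and 50 kb flanks) showed no genotype difference beyond the spread of the cultures. At Pbx3 it was 6, 6 and 8 in control brainstem cultures 51, 59 and 61 and 10, 6 and 5 in K27M cultures 41, 59 and 61. In the telencephalon it was 7, 3 and 7 in control cultures 51, 59 and 61 and 7, 12, 7 and 6 in K27M cultures 41, 51, 59 and 61. Groups overlapped at each of the 5 loci in both regions, in deposited lists and in lists of equal length. With the replicate block, which leaves brainstem cultures 59 and 61, the Vax1 locus held 1 peak in each control and 0 in each K27M culture (exact permutation p = 0.5), and groups did not overlap at 16.5% of 18889 loci. Among all coding genes with a peak, groups did not overlap at 0.942% of 19101 loci in the brainstem and 0.643% of 19141 in the telencephalon, and at 1.82% and 1.16% in lists of equal length. The mean K27M minus control at Pbx3 was 0.333 peaks in the brainstem and 2.33 in the telencephalon (two-sided exact permutation, p = 1 and 0.571). At Bmi1 it was 0 and 0.75 (p = 1 and 0.8, exact permutation), and at En2 −0.667 and 0.0833 (p = 1 in each, exact permutation). Vax2 gave −1 and 0.833 (exact permutation p = 0.6 and 0.714), and Vax1 0 and 0.333 (exact permutation p = 1 and 0.714).

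The counts moved with the length of the list. Across the 13 libraries, which share this length, Pearson's r between peaks per locus and peaks in the list was 0.85 for Bmi1, 0.844 for Pbx3, 0.739 for Vax2, 0.6 for En2 and 0.487 for Vax1, given as a description. Control telencephalon 59 had 1 peak at Bmi1, En2 and Vax2, and 0 at Vax1. The part of list length in differences between groups was not tested.

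**Figure D4:**
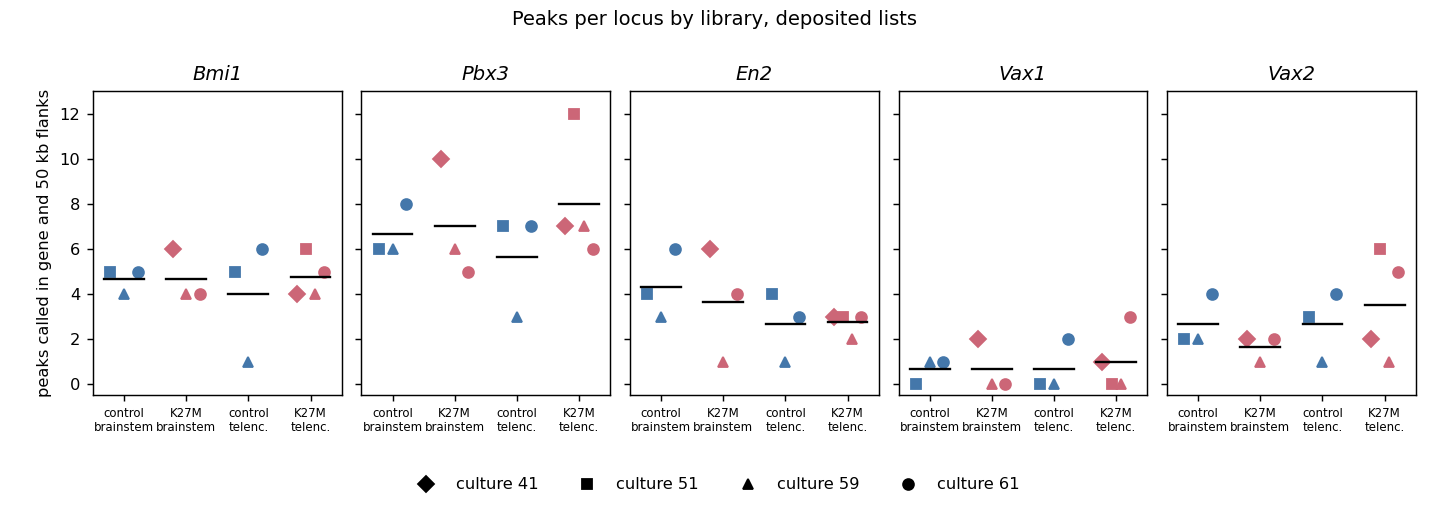
Peaks called in each gene and its 50 kb flanks (y axis) by library and group (x axis), with symbols for cultures and black lines for group means. Counts range from 3 to 12 at Pbx3 and from 0 to 3 at Vax1, and control and K27M groups overlap at all 5 loci.

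Relatives and partners of the 5 genes were read in the same way, as a list of 31 genes grouped by family. The 19 listed genes of Polycomb repressive complex 1 had a promoter peak in 11 to 13 libraries, and 14 of them in all. Cdkn2a, the cell cycle inhibitor locus repressed by Bmi1, was called in 13 libraries at a mean fold of 3.91 ± 0.58 (SD). Its K27M minus control was −0.065 ± 0.11 (SE) in the brainstem and 0.038 ± 0.095 in the telencephalon (limma, adjusted p = 1 and 0.9994). Pbx4 (4.12 ± 0.52, SD) was called in all 13 libraries, like Pbx3, and Pbx2 (2.16 ± 0.14) in 11. En1, the paralogue of En2, was called in 9 libraries. These were 3 of 3 control and 1 of 3 K27M brainstem cultures, and 3 of 3 control and 2 of 4 K27M telencephalon cultures. The En1 peaks were on average weak within their libraries, and in lists of equal length only 2 libraries kept one. No genotype test of this En1 split is given, and the share of all promoters with such a split was not computed. Whether En1 and En2 share a genotype difference was therefore not tested.

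Emx1 and Emx2, cortical homeobox genes, were called in 11 and 9 libraries. Emx2 had a peak in 7 of 7 telencephalon libraries and in 2 of 6 from the brainstem (Fisher's exact p = 0.021, unadjusted). Of the 6006 promoters called in some but not all libraries, 0.45% had a p under 0.05 in this comparison of regions. Of the 31 listed genes, 21 had a peak in all libraries, and limma called 0 of them in any genotype or region contrast. The unadjusted p was under 0.05 for 0 of the 21 in both genotype contrasts, where their median differences were 0.0039 in the brainstem and 0.0020 in the telencephalon, beside 0.00018 and −0.0016 over all 9200 promoters. In the fit that allows missing libraries 29 of the 31 were tested and 0 called, and the unadjusted p was under 0.05 for 2 in the brainstem and 1 in the telencephalon. These were Pcgf2 (0.64 ± 0.19, SE) and Emx1 (−0.22 ± 0.11) in the brainstem and Cbx7 (−0.24 ± 0.10) in the telencephalon, of which Pcgf2 and Cbx7 were named after their values were seen (limma, adjusted p = 1, 1 and 0.9998). Over all 12139 promoters of that fit the unadjusted p was under 0.05 for 3.76% in the brainstem and 3.81% in the telencephalon.

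The promoters most like that of Pbx3 in centred log2 fold over the 13 libraries were Kmt2d (Pearson r = 0.855), Nat10 (0.824) and Rpl23a (0.814), out of 9200. Values this high may arise by selection alone when the highest of so many correlations are taken, and they were not tested. The other genes were compared by the libraries in which they were called. Bmi1 shared its pattern, all but control telencephalon 59, with 1644 genes, of which Slc20a2, Ptpru and Crim1 were nearest in mean percentile. Vax2 shared its pattern with 9 genes, with Lgi4, Ryk and Tmem141 nearest, and Vax1 with 110, with Pram1, Adra2c and Chrna1 nearest. The pattern of En2 was shared by 0 other genes.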

How the data were processed

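ATAC-seq peak lists of 13 cultures were used. The authors trimmed reads with Trim Galore 0.6.7, aligned them to mm10 with BWA 0.7.17-r1188 in the nf-core ATAC-seq pipeline 2.1.2, and called broad peaks in each library with MACS2 2.2.7.1. The deposited values are a ratio, the fold enrichment over local background, with −log10 p-values and −log10 q-values. The authors did not normalise these between libraries. Depth was not given with the lists, so the number of libraries limits the precision.

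Here, peaks were matched to GENCODE M21 promoters by 1 bp of overlap, with the strongest peak kept. log2 folds of the 9200 promoters (or 13075 merged peaks) called in every library were centred per library and fitted with limma 3.58.1 (R 4.3.3), 4 groups and culture number, adjusted after Benjamini-Hochberg and called under 0.05. The block follows the study, whose methods account for cultures matched between conditions. Deviations of same-numbered libraries of a region correlated at 0.061 on average over 5 pairs (−0.10 to 0.21). The limma script was tested on simulated data. Detection was compared with Fisher's exact test and peak numbers with exact permutation tests, in Python 3.11.15 with scipy 1.17.1. Genes were named by list: the 5 members, 7 relatives always (of which 1 is not reported here), any listed gene past a test, and the 3 promoters most like each member. Merged peaks were named where called in all libraries, where they separated genotypes, or where strongest at a locus. Peaks called in 12 libraries were added after their values were seen. The members and lists were chosen with earlier results of these data known. Alternatives were equal list lengths, p at most 1e-10, overlap of at least 200 bp, the widest peak, percentiles, no centring, no block, a 10 kb flank, covered base pairs and each library left out. Fits allowing missing libraries were added after seeing the data. Promoter sequences are from NCBI RefSeq and the GRCm38.p6 genome.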

Additional observations from a re-analysis of the deposited data

Results flagged for a closer look

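Of 11 sets of 4 values tested in K27M telencephalon, 2 were flagged because the gap between 1 value and the next filled most of the range. A rate of about 1 in 20 sets flagged by chance applies to continuous values and not to small tied counts. At Pbx3, K27M telencephalon 51 had 12 peaks in the locus against 6 to 7 in the other cultures of its group. Its list held 52164 peaks, the longest of the group. At En2, K27M telencephalon 59 had 2 peaks in the locus, and the other 3 cultures of the group had 3 each. With those 3 counts tied, the gap is the whole range however small it is.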

How the results depend on the processing

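Over 43 results on the 5 genes and 613 alternatives of them, 554 neither reversed direction nor changed side of the threshold, 59 reversed direction, and 0 crossed the threshold. The 554 include differences that became 0 or left 0, since this was not counted as a reversal. En2 promoter detection in the brainstem, for example, went from −66.7 points to 0 with p at most 1e-10. The reversals were of differences that had not passed a test, and their cause was not tested. Depth is unknown, so a peak that was not called sets no upper limit on accessibility.

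The 1 promoter called between regions in K27M cultures became 0 without the replicate block, without centring, on the percentile scale, with p at most 1e-10 and with the widest peak. Leaving out single libraries gave 0 to 1, with 0 without K27M brainstem 41 or 59 or without K27M telencephalon 41, 59 or 61. Merged peaks called between genotypes in the brainstem, 0 as reported, were 1 without centring and 0 to 1 with single libraries left out (1 without control brainstem 59 or K27M telencephalon 59). Between regions in K27M cultures they were 1 in lists of equal length and 0 to 1 with single libraries left out (1 without control brainstem 51 or 61 or without K27M telencephalon 51 or 59).

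Without centring the median estimate over all promoters was 0.12 between regions in control cultures, against −0.0099 with it, and −0.10 for the difference of genotype effects, against 0.0050. Without centring the Pbx3 promoter estimate was 0.025 between genotypes in the telencephalon and 0.11 between regions in control cultures, and on the percentile scale these were 4.63 and 5.88 points. The brainstem genotype estimates were then −0.011 for the Pbx3 intronic peak, −0.029 for the Mapkap1 peak and −0.0024 for the Tex261 peak. The Mapkap1 peak in the telencephalon gave 0.067 without centring and 10.2 points on the percentile scale. Without the replicate block the Commd3 peak in the brainstem gave 0.011, and no named gene passed the adjusted test with or without the block. In the brainstem cultures with both genotypes En2 promoter detection became completely separated (−100 points), as did the peaks at the Vax1 locus (−1 peak).

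With single libraries left out, Pbx3 promoter estimates ran from −0.20 to 0.14 between genotypes in the telencephalon, with 0.14 without control telencephalon 51 and 0.081 without K27M telencephalon 51. They ran from −0.33 to 0.055 for the difference of genotype effects, and between regions from −0.17 to 0.18 in control and from −0.19 to 0.027 in K27M cultures. The Commd3 peak ran from −0.13 to 0.079 in the brainstem and from −0.025 to 0.15 in the telencephalon. The Mapkap1 peak ran from −0.065 to 0.035 in the brainstem and from −0.11 to 0.044 in the telencephalon. In the brainstem the Pbx3 intronic peak ran from −0.10 to 0.17 and the Tex261 peak from −0.019 to 0.11.

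Promoters separating the genotypes in the brainstem were 62 in lists of equal length, 2 with p at most 1e-10 and 199 with the replicate block (only cultures with both genotypes), and 29 to 141 with single libraries left out. In the telencephalon they were 39 in lists of equal length and 21 with the replicate block, and 11 to 145 with single libraries left out. Merged peaks separating in the brainstem were 1 with p at most 1e-10 and 3082 with the block, and 540 to 1151 with single libraries left out. In the telencephalon they were 10, 394, and 252 to 1240. The block and leaving out a library leave fewer libraries per group, which makes complete separation easier by construction. For the other settings the cause was not tested.

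Promoter detection of Bmi1, K27M minus control, was −16.7 points in the telencephalon and −9.52 over both regions in lists of equal length, and −8.33 and −19.0 with p at most 1e-10. Detection of Vax2 in the telencephalon was −33.3 points in lists of equal length, and −25 to 33.3 with single libraries left out, with −25 without control telencephalon 59.

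Loci whose groups do not overlap in the brainstem numbered 313 in lists of equal length, 7 with p at most 1e-10, 287 by base pairs covered and 3114 with the replicate block, and 376 to 1312 with single libraries left out. In the telencephalon they numbered 203, 9, 199 and 239, with 79 for a 10 kb flank and 165 to 1571 with single libraries left out. Pbx3 in the brainstem gave −484.3 base pairs covered, −1.5 peaks with the replicate block, and −1.17 to 1.33 peaks with single libraries left out, with −1.17 without K27M brainstem 41. In lists of equal length En2 and Vax2 in the telencephalon gave −0.25 and −0.333 peaks, and Vax2 gave −0.417 with p at most 1e-10. With single libraries left out, En2 ran from −1.83 to 0.667 peaks in the brainstem and from −0.75 to 0.75 in the telencephalon, Bmi1 in the telencephalon from −0.75 to 1.75, and Vax1 in the telencephalon from −0.333 to 1. Without control telencephalon 59 both Bmi1 and En2 gave −0.75 in the telencephalon.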
